A study of Mus musculus with 22 samples.

Results

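Gastruloids are aggregates of mouse embryonic stem cells that, in suspension culture, form cells of the early embryo. Here the 24 gastruloids of the day 3 pool of the third MULTI-seq experiment were compared by the class that the authors' deposited cell table gives each of them, 13 neural and 11 mesodermal. They are 24 of the 136 gastruloids with a barcode in the whole series. They hold 5778 cells, 2957 in neural and 2821 in mesodermal gastruloids, of the 77683 final cells of the series. Both classes have the same origin: wild type E14Tg2A embryonic stem cells, with 300 cells put in each well and 48 h of aggregation before they were exposed to 3 µM CHIR99021, which blocks GSK3 and so switches on Wnt signalling. They were collected at day 3 and labelled with a lipid-anchored DNA barcode per gastruloid. The class is thus no treatment but a sorting of gastruloids made alike. The sources used here do not say how the authors set it. It was read as chosen by the measured shares of cell names in each gastruloid. Those shares are therefore given as a description, without a test. The tests below ask another question: did cells that bear the same name, Primitive Streak, differ in expression between gastruloids of the 2 classes?

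The primitive streak is the region of the gastrulating embryo where epiblast cells leave the epithelium to become mesoderm and endoderm. The T-box factor Brachyury (gene T), Wnt3 and Wnt3a, Fgf8 and Nodal signals mark and sustain it, and cells leaving it turn on Mesp1, Tbx6 and Snai1 as nascent and then presomitic mesoderm. Epiblast cells outside its influence keep Sox2 and Pou3f1 and become neurectoderm.

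The shares of cells show what the 2 classes are. Cells with a neural name (Early, Caudal and Late Neurectoderm, Early and Late Spinal Cord, and Neurons) made up from 14.1% to 42.8% of a neural gastruloid, with a median of 24.4%. In mesodermal gastruloids they made up from 2.21% to 15.9%, with a median of 8.39%, so the classes overlapped slightly. Cells with a mesoderm name (Early Nascent Mesoderm and Early and Late Posterior PSM, the presomitic mesoderm) ran from 5.49% to 13.4% in neural gastruloids and from 16.1% to 36.3% in mesodermal ones. Here the classes did not overlap. At the border lay the mesodermal gastruloid with barcode 61, at 15.9% neural and 24.7% mesoderm, and the neural gastruloid with barcode 56, at 15.0% and 13.4%. The single name Early Neurectoderm had a median of 20.2% in neural and 6.29% in mesodermal gastruloids, and Early Nascent Mesoderm a median of 5.63% and 17.8%. Primitive Streak was the most common name in both, with a median of 62.6% in neural gastruloids (44.9% to 66.8%) and 57.1% in mesodermal ones (33.2% to 70.6%).

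**Figure D1:**
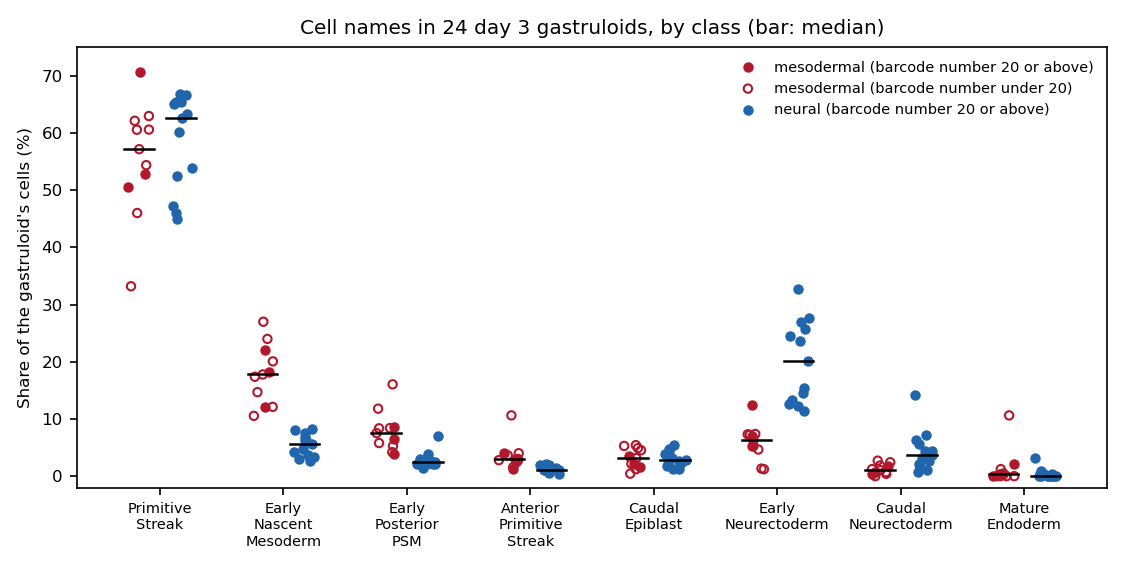
Share of each gastruloid's cells (%, vertical axis) under 8 of the authors' cell names, 1 point per gastruloid, with bars at the class medians. Early Neurectoderm runs from 11.4% to 32.8% in neural gastruloids, and Primitive Streak spans like ranges in both classes.

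Some features of the gastruloids run alongside the class and touch each result below. All 8 gastruloids whose barcode number lay under 20 (2 to 19) were mesodermal. Of the 16 with numbers from 20 to 66, 13 were neural and 3 mesodermal. What the numbers stand for, such as a plate row or an order of handling, the sources used here do not say, and the class and this barcode set largely coincide. The mesodermal gastruloid with barcode 12 stood apart, with 10.6% of its cells named Mature Endoderm, 10.6% Anterior Primitive Streak and 4.42% Notochord, against class medians of 0.301%, 3.01% and 0. The count of called genes, the mesoderm, streak and Hox lists and the embryo-mapped types are therefore also given without gastruloid 12 and among the gastruloids with barcode numbers of 20 or above. The share of a gastruloid's cells that came from lane A was uneven, from 33.6% to 79.9% in neural (median 49.3%) and from 6.47% to 86.7% in mesodermal gastruloids (median 48.8%). In the 2 lanes 51.1% and 45.1% of the final cells carried a gastruloid call, and 3 cell barcodes occurred in both lanes. The median UMI count per cell averaged 28245 ± 972 (SD, n = 13) in neural and 29179 ± 729 (SD, n = 11) in mesodermal gastruloids (permutation test, two-sided, p = 0.0161, adjusted over 4 measures 0.0642). Cells per gastruloid, genes per cell and the mitochondrial percent gave adjusted p of 0.439, 0.531 and 0.836 in the same permutation test.

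The name Primitive Streak was checked against its markers. T had 614 CPM (UMI counts scaled to a common library size) over all day 3 cells of that name, against 96.5 in Early Neurectoderm and 345 in Early Nascent Mesoderm. Fgf8 had 365 CPM, against 34.3 in Early Neurectoderm, 374 in Early Nascent Mesoderm and 569 in Anterior Primitive Streak. Further streak markers were also higher under other names: Eomes had 19.8 CPM and Mixl1 65.7 in Primitive Streak cells, but 215 and 339 in Early Nascent Mesoderm. In Early Neurectoderm Eomes had 2.62 CPM and Mixl1 2.09. The cells of this name were thus high in T and lay between these other names in Eomes and Mixl1. Sox17, which marks endoderm, was at 0.543 CPM and the neural marker Sox1 at 0.332 in them.

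UMIs were summed over the Primitive Streak cells of each gastruloid, from 91 to 185 cells in neural and from 75 to 201 in mesodermal gastruloids. Of 10443 genes tested, 129 differed between the classes (edgeR quasi-likelihood test, Benjamini-Hochberg adjusted p under 0.05), which is 1.24% of those tested. Of these, 95 genes (0.91%) were higher in mesodermal and 34 (0.326%) higher in neural gastruloids. Genes of nascent mesoderm and 3 Hoxb genes were among the first set, and the epiblast and neural factor Pou3f1 was in the second. The differences were small: the median absolute log2 fold change of the called genes was 0.28, the largest 0.96, and 26 genes reached 0.5. For 1 gene of all tested (0.00958%), Col4a1, the ranges of the classes did not overlap. The sources used here do not say how the names were set, and they were read as resting on the same genes. A test within a name can thus not be taken as independent of how the classes arose. Primitive Streak cells lying nearer to a neighbouring name in one class than in the other cannot be told apart here from a change in all of them.

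**Figure D2:**
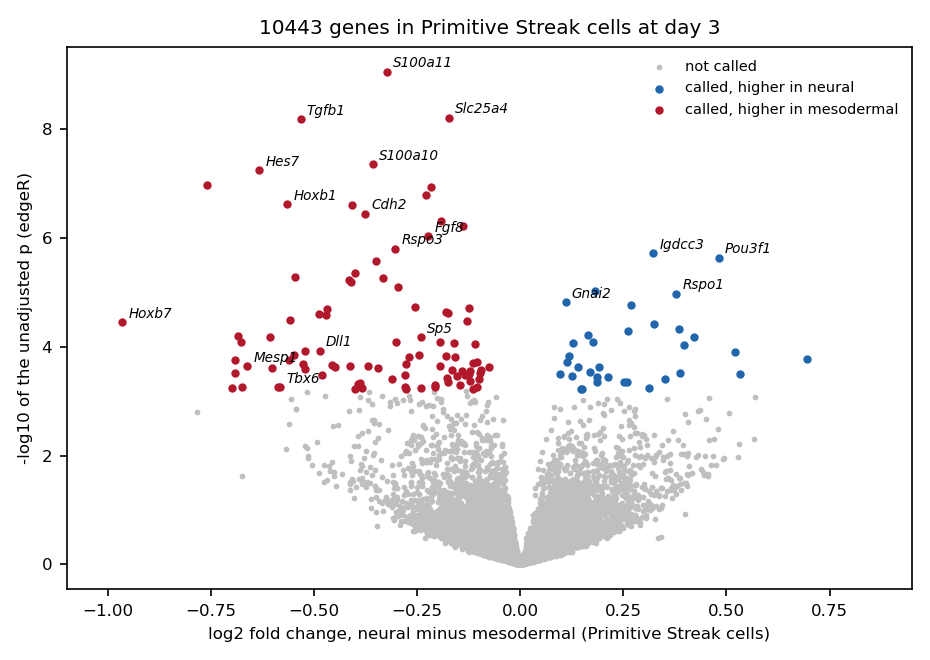
Log2 fold change of each gene in Primitive Streak cells (horizontal axis, neural minus mesodermal) against -log10 of its unadjusted p in edgeR (vertical axis), 1 point per gene. The 95 genes called higher in mesodermal gastruloids lie on the left and the 34 called higher in neural ones on the right, none beyond 1 on the log2 scale.

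Without gastruloid 12, 94 genes were called, 85 of them among the 129. With the share of cells from lane A as a covariate 129 were called, 118 of them the same genes, while 1 lane alone gave 17 calls (lane B) or 29 (lane A). Among barcode numbers of 20 or above, which sets 13 neural against 3 mesodermal gastruloids, 0 genes were called by edgeR (574 had an unadjusted p under 0.05). No other tool was run on that subset. All 129 genes kept their sign there, with a median of 0.80 times the log2 fold change of the whole set, but those 3 gastruloids had also helped to choose the 129. For 101 of the 129 genes the mean of these 3 lay between that of the neural and that of the other mesodermal gastruloids. The part of the barcode set in these differences was not tested further.

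Nascent and presomitic mesoderm genes stood out among the lists. Of 10 members tested, 5 were called higher in mesodermal gastruloids, against 0.91% of all genes, and all 10 had a negative log2 fold change (neural minus mesodermal), against 50.2% of all genes, with a median of -0.45 against -0.00. The other 11 members of the list were too low to be tested, among them Msgn1, Mesp2 and Snai2. Hes7, a repressor of the segmentation clock, ran from 15.3 to 42.1 CPM in neural gastruloids (median 22.9) and from 25.1 to 54.7 in mesodermal ones (median 38.3). Of the 13 neural gastruloids 12 lay below the mesodermal median, and the ranges overlapped. Its log2 fold change was -0.63 ± 0.10 (SE, adjusted p = 0.000115). By cell name Hes7 had 31.8 CPM in Primitive Streak and 14.1 in Early Nascent Mesoderm. It had 78.8 in Early Posterior PSM and 100.5 in Caudal Epiblast, so it was not particular to mesoderm.

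Mesp1, a factor of the earliest mesoderm, ran from 8.87 to 33.7 CPM in neural gastruloids (median 19.1) and from 11.6 to 74.5 in mesodermal ones (median 30.1). The highest value was that of gastruloid 12, and the log2 fold change was -0.66 ± 0.17 (SE, adjusted p = 0.0308). Tbx6, which commits cells to presomitic mesoderm, had 2.34 to 7.04 CPM in neural (median 3.76) and 3.82 to 11.97 in mesodermal gastruloids (median 6.48), with a log2 fold change of -0.58 ± 0.16 (SE, adjusted p = 0.0483, and 0.0516 with the lane covariate). Both were low in this cell name, and both calls were lost without gastruloid 12, at adjusted p of 0.0607 for Mesp1 and 0.0630 for Tbx6, and with DESeq2, at 0.218 and 0.0955. The Notch ligand Dll1 had 6.97 to 14.8 CPM in neural (median 9.74) and 9.28 to 22.7 in mesodermal gastruloids (median 15.1), with all 13 neural gastruloids below the mesodermal median. Its log2 fold change was -0.49 ± 0.12 (SE, adjusted p = 0.0217). The Wnt enhancer Rspo3 had 107 to 170.5 CPM in neural and 127 to 208 in mesodermal gastruloids and a log2 fold change of -0.30 (adjusted p = 0.00108). Snai1, which drives cells out of the epithelium, did not pass (log2 fold change -0.41, adjusted p = 0.0843). All 13 neural gastruloids lay below the mesodermal median. So they did for Hmgb2 and Npm1, each at a log2 fold change of -0.04 and not called (adjusted p of 0.322 and 0.109). Such counts, here and below, come from the same values as the calls and are a description. Without gastruloid 12 the list kept 3 called members, and among barcode numbers of 20 or above 10 of 11 members had a negative sign, with a median of -0.37 and 0 called.

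**Figure D3:**
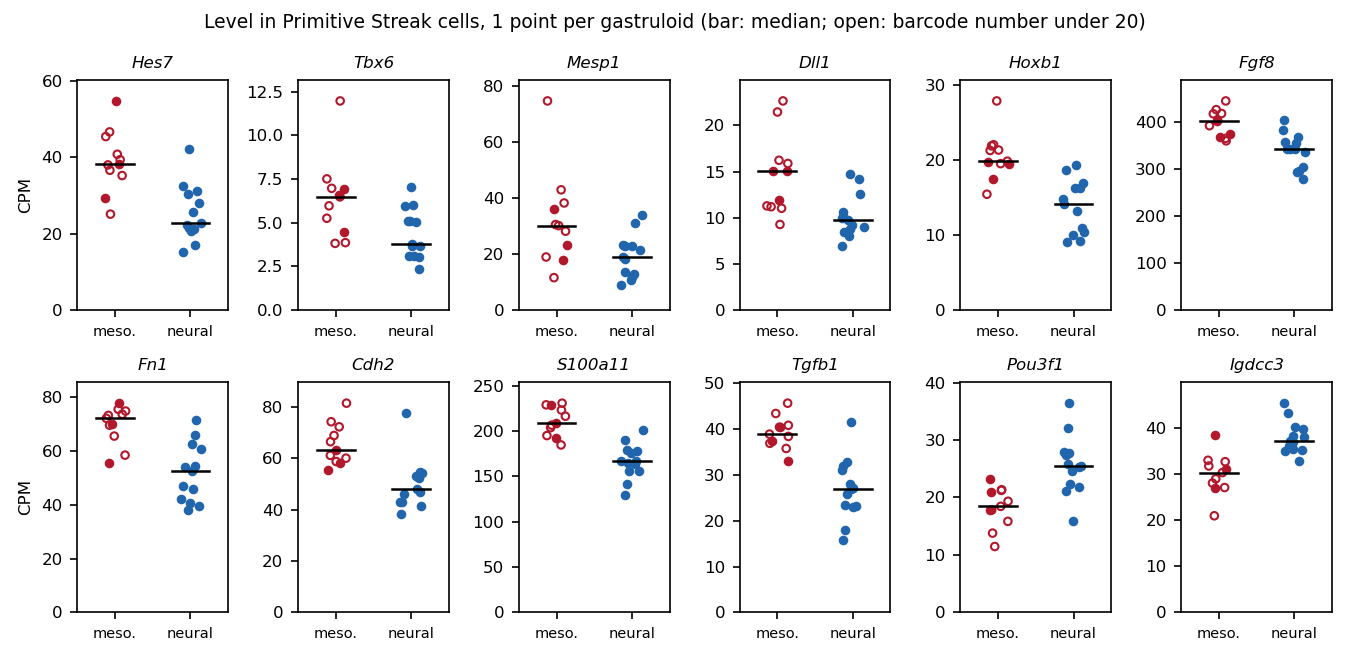
Level of 12 genes in Primitive Streak cells (CPM, vertical axis), 1 point per gastruloid, mesodermal left and neural right, with bars at the medians and open points for barcode numbers under 20. For Hes7, Tbx6, Mesp1, Dll1, Hoxb1, Fgf8, Fn1, Cdh2, S100a11 and Tgfb1 the mesodermal median is the higher one, and for Pou3f1 and Igdcc3 the neural one; the 3 filled mesodermal points of Hes7 span 29.2 to 54.7.

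The factors of the streak and mesendoderm gave 4 called members of 16 tested, Sp5, Lhx1, Mesp1 and Tbx6. Each was higher in mesodermal gastruloids (0.91% of all genes were). Mesp1 and Tbx6 are also called members of the nascent mesoderm list, and Cdx2 stands in the Hox and Cdx list too. The lists are thus not separate sets of genes. All 16 had a negative sign (median -0.24), as 50.2% of all genes did. T itself ran from 536 to 691 CPM in neural and from 561 to 679 in mesodermal gastruloids, with a log2 fold change of -0.03 ± 0.03 (SE, adjusted p = 0.791). This streak marker thus differed by less than the spread between gastruloids. Sp5, a direct Wnt target that dampens Wnt output, had 54.3 to 80.8 CPM in neural (median 66.3) and 71.9 to 104 in mesodermal gastruloids (median 74.8), with a log2 fold change of -0.24 (adjusted p = 0.0152). Lhx1, a factor of the anterior streak and early mesoderm, had 16.9 to 42.6 CPM in neural (median 24.6) and 24.2 to 86.7 in mesodermal gastruloids (median 37.9), with a log2 fold change of -0.52 (adjusted p = 0.0321). Eomes, at a log2 fold change of -0.39 (adjusted p = 0.0618), and Mixl1, at -0.26 (adjusted p = 0.223), did not pass. Without gastruloid 12 only 1 member was called (Sp5) and the Lhx1 call was lost (adjusted p = 0.0604), while all 16 kept the negative sign. With DESeq2 both calls were lost, at adjusted p of 0.0667 for Sp5 and 0.137 for Lhx1. Among barcode numbers of 20 or above 14 of 16 were negative.

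The upstream windows of Sp5, Mesp1 and Tbx6 are shown because these factors are 3 of the 4 called members of the streak list. They are the 250 bases before the RefSeq start of each gene (build GRCm38.p6, 5′ to 3′ on the gene's strand), with the core TCAAAG of the TCF/LEF motif, on either strand, in capitals. The windows lie at chr2:70474673-70474922 on the plus strand (Sp5), chr7:79793591-79793840 on the minus strand (Mesp1) and chr7:126781233-126781482 on the plus strand (Tbx6).
Sp5: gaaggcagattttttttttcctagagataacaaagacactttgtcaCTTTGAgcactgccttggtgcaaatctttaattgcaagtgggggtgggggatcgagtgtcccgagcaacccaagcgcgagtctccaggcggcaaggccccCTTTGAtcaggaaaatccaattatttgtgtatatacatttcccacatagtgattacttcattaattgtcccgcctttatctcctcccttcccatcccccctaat
Mesp1: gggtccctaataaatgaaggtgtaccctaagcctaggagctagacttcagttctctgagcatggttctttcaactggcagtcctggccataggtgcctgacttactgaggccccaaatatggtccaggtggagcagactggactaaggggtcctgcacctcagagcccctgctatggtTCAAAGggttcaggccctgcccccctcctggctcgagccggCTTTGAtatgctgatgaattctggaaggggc
Tbx6: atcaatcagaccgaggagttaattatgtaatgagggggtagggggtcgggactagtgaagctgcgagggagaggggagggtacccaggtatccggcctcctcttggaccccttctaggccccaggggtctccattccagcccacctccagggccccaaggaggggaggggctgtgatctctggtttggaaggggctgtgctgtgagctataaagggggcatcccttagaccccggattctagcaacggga
Sp5 and Mesp1 each held the core at 2 places and Tbx6 at 0. Over the called genes with a window, 10 of 68 higher in mesodermal (14.7%) and 3 of 28 higher in neural gastruloids (10.7%) held it, against 10.2% of the 8302 tested genes with a window. These shares lie near the background. Other motifs were searched in the same windows, each on both strands. The T-box half-site AGGTGTGA was in 0 of either set (0.566% of tested genes). The Notch effector core TGGGAA was in 26.5% and 14.3% (19.9%), and the TATA box TATAAA in 8.82% and 3.57% (5.59%). A match of letters is a description and says nothing on binding.

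Hox genes were low in these cells and higher in mesodermal gastruloids where called. Of 9 tested members of the Hox and Cdx list, 3 were called, all Hoxb genes, against 0.91% of all genes. All 9 had a negative sign (median -0.49), against 50.2% of all genes, and 15 were too low to be tested. Hoxb1, an early Hox gene of the posterior streak, had 9.07 to 19.3 CPM in neural (median 14.2) and 15.5 to 27.9 in mesodermal gastruloids (median 19.9), and all 13 neural gastruloids lay below the mesodermal median. Its log2 fold change was -0.57 ± 0.10 (SE, adjusted p = 0.000258). Hoxb2 (log2 fold change -0.61, adjusted p = 0.0152) and Hoxb7 (-0.96, adjusted p = 0.00946) had medians of 6.04 and 2.11 CPM in neural and 9.01 and 3.92 in mesodermal gastruloids. Cdx2, a caudal factor upstream of Hox genes, did not pass, with medians of 87.0 and 88.4 CPM and a log2 fold change of -0.02 (adjusted p = 0.966). The 3 calls remained without gastruloid 12. Among barcode numbers of 20 or above 8 of 11 tested members were negative, with a median of -0.30.

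Among signals, the FGF ligand Fgf8, a signal of the streak, had 278 to 403 CPM in neural (median 342) and 359 to 444 in mesodermal gastruloids (median 400.5). Its log2 fold change was -0.22 ± 0.04 (SE, adjusted p = 0.000672), and 12 of 13 neural gastruloids lay below the mesodermal median. The FGF list had 2 called members of 16, Fgf8 and the feedback phosphatase Dusp4 (log2 fold change -0.28, adjusted p = 0.0486). Spry2, Spry4, Dusp6 and Etv4 did not pass. For this list and the Wnt lists, the shares over all genes tested are 0.91% called higher in mesodermal and 0.326% in neural gastruloids. Of 8 Wnt ligands and enhancers, Wnt5a (-0.39, adjusted p = 0.0446) and Rspo3 were called higher in mesodermal gastruloids and Rspo1 higher in neural ones. Rspo1, which like Rspo3 strengthens Wnt signals, had 17.2 to 27.9 CPM in neural (median 22.7) and 14.0 to 21.0 in mesodermal gastruloids (median 17.5), with a log2 fold change of 0.38 ± 0.08 (SE, adjusted p = 0.00418). The 2 R-spondins thus had opposite signs. Of 20 Wnt targets and feedback genes, Sp5 alone was called, already counted in the streak list, and without gastruloid 12 there were 2 called of 21. Axin2, a general target, had medians of 40.4 and 45.6 CPM and did not pass (log2 fold change -0.10, adjusted p = 0.605), and Lef1 had a log2 fold change of -0.13 (adjusted p = 0.0526).

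For the next 3 lists the share over all genes tested is 0.91% called higher in mesodermal gastruloids, and no set test was run. In the Nodal list 2 of 16 were called, both higher in mesodermal gastruloids. They were the co-receptor Tdgf1 (-0.38, adjusted p = 0.0483) and the antagonist follistatin, Fst (-0.10, adjusted p = 0.0331). Nodal, with medians of 36.6 and 36.4 CPM, did not pass (log2 fold change -0.10, adjusted p = 0.788). Of the BMP list 1 of 12 was called, the target Id1 (-0.31, adjusted p = 0.0393). Of the Notch list 2 of 14 were called, Hes7 and Dll1, both already counted in the nascent mesoderm list, and Notch1 and Rbpj did not pass. Tdgf1, Id1, Dusp4 and Wnt5a lost their calls without gastruloid 12, at adjusted p between 0.0731 and 0.0970. With the lane covariate Tdgf1 and Wnt5a lost them, at 0.0516 and 0.0568. Tdgf1, Id1, Dusp4, Wnt5a and Fst lost them with DESeq2, at adjusted p between 0.0641 and 0.259.

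Tgfb1, the founding ligand of its family, was among the strongest differences: 15.9 to 41.5 CPM in neural (median 26.9) and 33.0 to 45.6 in mesodermal gastruloids (median 38.9). Its log2 fold change was -0.53 ± 0.08 (SE, adjusted p = 2.27e-05). The smallest p of all belonged to S100a11, a calcium-binding protein, with 129 to 200.5 CPM in neural (median 167) and 185 to 231 in mesodermal gastruloids (median 209). All 13 neural gastruloids lay below the mesodermal median, and the log2 fold change was -0.32 ± 0.04 (SE, adjusted p = 9.03e-06). Its relative S100a10 had medians of 327.5 and 421 CPM and a log2 fold change of -0.36 (adjusted p = 0.000115). The mitochondrial ADP/ATP carrier Slc25a4 differed by -0.17 (adjusted p = 2.27e-05). Sprr2a3 (-0.76, adjusted p = 0.000171) belongs to a family of near-identical copies among which reads may be split, so its value is uncertain. Smc6, of the chromosome-maintenance complex, Dusp11, an RNA phosphatase, and the transcriptional co-regulator Cited2 differed by -0.22, -0.23 and -0.19 (adjusted p of 0.000171, 0.000207 and 0.000427).

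Adhesion genes split. Cdh2, the cadherin of mesoderm and neural cells, had 38.4 to 77.7 CPM in neural (median 47.9) and 55.3 to 81.5 in mesodermal gastruloids (median 63.4), with a log2 fold change of -0.38 ± 0.06 (SE, adjusted p = 0.000334). Fibronectin, Fn1, the matrix on which nascent mesoderm moves, had 37.9 to 71.4 CPM in neural (median 52.5) and 55.6 to 77.7 in mesodermal gastruloids (median 72.1), with a log2 fold change of -0.41 ± 0.07 (SE, adjusted p = 0.000258). In Early Nascent Mesoderm cells Fn1 stood at 652 CPM, against 60.2 over all Primitive Streak cells. The type IV collagen Col4a1 of basement membranes went the other way, with 26.3 to 32.8 CPM in neural (median 27.9) and 17.4 to 26.0 in mesodermal gastruloids (median 24.2), and a log2 fold change of 0.27 ± 0.06 (SE, adjusted p = 0.00623). Col4a1 is the gene whose ranges did not overlap. The epithelial cadherin Cdh1 had medians of 63.2 and 64.3 CPM and did not pass (log2 fold change -0.01, adjusted p = 0.976). Of 27 adhesion genes tested Cdh2, Fn1 and Col4a1 were called and 24 were not. Over all genes tested 0.91% were called higher in mesodermal and 0.326% higher in neural gastruloids.

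The genes higher in neural gastruloids were led by Igdcc3, an immunoglobulin-family membrane protein, with 32.7 to 45.3 CPM in neural (median 37.2) and 20.9 to 38.3 in mesodermal gastruloids (median 30.3). All 13 neural gastruloids lay above the mesodermal median, and the log2 fold change was 0.32 ± 0.06 (SE, adjusted p = 0.00123). Pou3f1, a POU factor that moves epiblast cells toward the neural fate, had 15.9 to 36.4 CPM in neural (median 25.5) and 11.5 to 23.2 in mesodermal gastruloids (median 18.5), with a log2 fold change of 0.48 ± 0.09 (SE, adjusted p = 0.00140). In Early Neurectoderm cells it stood at 41.8 CPM, against 5.15 in Early Nascent Mesoderm. Of the 28 neural factors listed, 14 were too low to be tested. Of 14 tested, Pou3f1 alone was called higher in neural gastruloids, as 0.326% of all genes were. Sox4 was called higher in mesodermal ones (-0.18, adjusted p = 0.0385, and 0.0530 without gastruloid 12), as 0.91% of all genes were. The median over the list was 0.00. Sox2, which neural progenitors keep, had medians of 12.9 and 13.4 CPM (log2 fold change 0.03, adjusted p = 0.962), and Sox3 19.5 and 20.4 (0.01, adjusted p = 0.988).

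Pluripotency and epiblast genes gave 1 call in each direction of 18 tested. Over all genes tested 0.326% were called higher in neural and 0.91% higher in mesodermal gastruloids. The DNA methyltransferase Dnmt3b, high in epiblast, had medians of 202.5 CPM in neural and 181 in mesodermal gastruloids and a log2 fold change of 0.18 ± 0.04 (SE, adjusted p = 0.0170), and Tdgf1 was called the other way. Pou5f1 and Nanog did not pass (log2 fold changes of 0.05 and 0.16, adjusted p of 0.383 and 0.425). Further genes that led this direction were Zfp428 (0.18), Gnai2, a G protein subunit (0.11), the sorting receptor Sort1 (0.32), the protein kinase A subunit Prkar2b (0.38), the kinase Pim2 (0.26) and the peptide hormone gene Calca (0.42), each a log2 fold change. Their adjusted p ran from 0.00394 for Zfp428 to 0.0152 for Calca. With DESeq2 the Pim2 call was lost (adjusted p = 0.118).

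Lists of general cell state gave at most 1 call each. Over all genes tested 1.24% were called, so lists of this size hold few calls at that share. Of 40 cell cycle genes, 31 of sterol and fatty acid synthesis, 29 of Myc and ribosome biogenesis and 26 of the stress and dissociation response, no member was called, and the list medians lay between -0.04 and 0.00. Of 29 glycolysis genes Ldha was called (-0.11, adjusted p = 0.0291), and of 45 oxidative phosphorylation genes Cycs (-0.10, adjusted p = 0.0352). Both were higher in mesodermal gastruloids and both were lost without gastruloid 12. Negative signs were common in some of these lists too, against 50.2% of all genes. They held 36 of 45 oxidative phosphorylation, 24 of 31 sterol and fatty acid, 21 of 29 glycolysis and 21 of 29 Myc genes. In the cell cycle list 20 of 40 were negative and in the stress list 16 of 26. No retinoic acid gene (7 tested) and no endoderm gene (7 tested) was called. All 7 endoderm genes had a negative sign, with a median of -0.14, and 6 of 7 without gastruloid 12, with a median of -0.09.

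**Figure D4:**
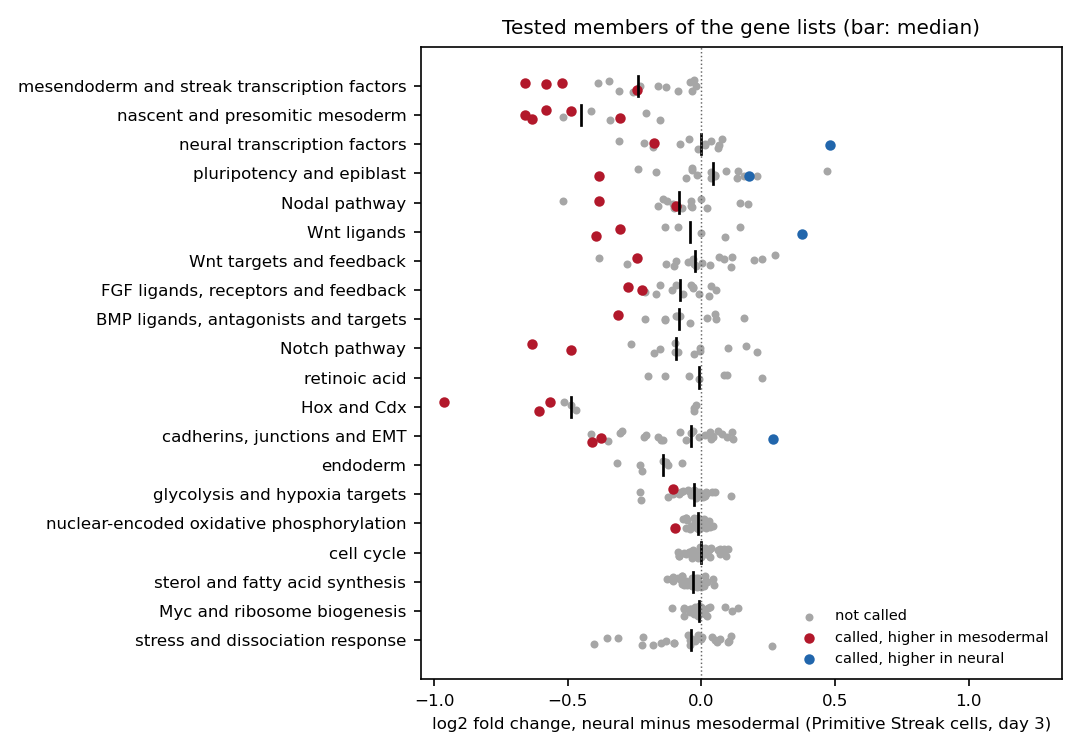
Log2 fold change in Primitive Streak cells (horizontal axis, neural minus mesodermal) of each tested member of 20 gene lists, with bars at the list medians and colour for called members. The nascent and presomitic mesoderm and the Hox and Cdx lists have medians of -0.45 and -0.49, and the cell cycle list a median of 0.00.

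Markers of other cell types in the Primitive Streak sums moved with the class in part. The summed level of 8 nascent mesoderm markers (6 tested, 4 called higher in mesodermal gastruloids) ran from 153 to 256 CPM in neural and from 200.4 to 344 in mesodermal gastruloids, or up to 298 without gastruloid 12. The called ones, Hes7, Mesp1, Rspo3 and Tbx6, are calls already given above, so the sum is no separate result. That of 10 neurectoderm markers (5 tested, Pou3f1 called) ran from 61.1 to 109 CPM in neural and from 60.5 to 83.6 in mesodermal gastruloids. Over all genes tested 0.91% were called higher in mesodermal and 0.326% higher in neural gastruloids. Of the nascent mesoderm markers, Rspo3 and then Hes7 had the highest levels in Primitive Streak cells, at 147 and 31.8 CPM. In Early Nascent Mesoderm they had 249 and 14.1, and in Caudal Epiblast 180 and 100.5. The 6 endoderm markers summed to 26.9 to 71.6 CPM in neural and 37.6 to 123 in mesodermal gastruloids, or up to 88.1 without gastruloid 12. The 4 neuron markers summed to 126 to 251 CPM in neural and 172 to 212 in mesodermal gastruloids. Most of this was Stmn2, at 179 CPM in Primitive Streak cells. Stmn2 also had 355 in Early Neurectoderm and 88.8 in Early Nascent Mesoderm, so it was not particular to neurons here. None of the markers was at 0 in all gastruloids. Tested were 3 of 6 endoderm and 3 of 4 neuron markers. Of the endothelial, germ cell and cardiac markers 1 of 5 each was tested. None of those tested was called, but at the shares over all genes so few markers would seldom hold a call. The part of RNA from neighbouring cells in the differences was not tested.

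Levels per cell can also be read as the share of cells with at least 1 UMI of a gene, after each cell was thinned to 10000 UMIs. Median depths before thinning were 28310 UMIs in neural and 29077 in mesodermal Primitive Streak cells, and 27535 and 28770.5 in Early Neurectoderm cells, which should lack mesoderm genes. For Tbx6 the share was 3.90% of 1718 cells in neural and 6.56% of 1556 in mesodermal gastruloids (unthinned 10.1% and 14.3%), against 0.337% and 1.24% in Early Neurectoderm. For Mesp1 it was 9.78% and 13.6% (unthinned 18.9% and 22.9%), against 1.52% and 1.86%. For Hoxb1 it was 11.3% and 16.2% (unthinned 23.2% and 31.2%), against 0.675% and 1.86%. In the mesodermal class more Primitive Streak cells thus had a UMI of each gene, and these shares lay above those of Early Neurectoderm.

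The authors' mapping of the same cells onto an embryo atlas gives another annotation. The share of Primitive Streak cells mapped to Epiblast was 11.1% ± 3.81 (SD, n = 13) in neural and 7.70% ± 1.70 (SD, n = 11) in mesodermal gastruloids (permutation test, two-sided, p = 0.0109, adjusted over 3 types 0.0326). It was above the mesodermal median in 9 of 13 neural gastruloids. The difference of 3.41 percentage points was 3.58 without gastruloid 12 (permutation adjusted p = 0.0319). It no longer passed without lane B, at 4.07 points (permutation adjusted p = 0.144), or among barcode numbers of 20 or above, at 4.25 points with 13 against 3 gastruloids (exact permutation test, adjusted p = 0.193). The shares mapped to Primitive Streak (80.7% and 82.0%) and to Caudal epiblast (7.07% and 7.98%) did not pass (adjusted p of 0.520 for each, same permutation test). These cells had also helped to choose the 129 genes, so what follows is a description. When only cells mapped to the embryo primitive streak were kept, 56 genes were called, 54 of them among the 129. All 126 that could be tested kept their sign. Hes7, Hoxb1, Fgf8, Fn1, Cdh2, S100a11 and Pou3f1 kept their calls there, while Tbx6, Mesp1 and Dll1 did not, at adjusted p of 0.351, 0.121 and 0.254, nor did Sp5 and Hoxb2 (0.158 for each), Lhx1 (0.135) and Col4a1 (0.121).

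The sum over all cells of a gastruloid mixes expression with composition. For Fn1 the log2 ratio of mean CPM, neural over mesodermal, was -1.36 over all cells and -0.41 in Primitive Streak cells alone. For Mesp1 these were -1.64 and -0.72, for Tbx6 -1.34 and -0.52, and for Pou3f1 0.79 and 0.50. Of the 129 called genes, 93 had the larger absolute ratio over all cells. Hes7 did not, at -0.51 over all cells and -0.60 within the name. The sign was opposite for 3 of the 129, among them Hoxb7, at 0.37 over all cells and -0.92 within the name, and Col4a1, at -0.07 and 0.30.

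Other names were thinner. None had 4 gastruloids of each class with 20 cells, so the minimum was lowered to 10 cells after the data were seen. In Early Neurectoderm (13 neural and 8 mesodermal gastruloids) 0 of 7340 genes (0%) were called by edgeR and 0 by DESeq2, with 438 at an unadjusted p under 0.05 in edgeR. In Early Nascent Mesoderm (9 and 11 gastruloids) 0 of 6542 (0%) were called by edgeR and 0 by DESeq2, with 402 at an unadjusted p under 0.05. Without a filter on low counts edgeR called 43 there (9 higher in neural, 34 in mesodermal gastruloids) and 2 in Early Neurectoderm. Of the 129 genes, 62 of 89 tested in Early Neurectoderm had the sign they had in Primitive Streak cells (69.7%, against 52.9% of all genes tested in both). In Early Nascent Mesoderm it was 60 of 103 (58.3%, against 51.4%). These are the same gastruloids, so the counts are a description. Of the same sign, Hes7 had a log2 fold change of -0.65 and Sp5 of -0.41 in Early Neurectoderm, and Fn1 of -0.32 and Mesp1 of -0.31 in Early Nascent Mesoderm. Of the opposite sign there were Fgf8 (0.35), Fst (0.30) and Col4a1 (-0.32) in Early Nascent Mesoderm, Cdh2 (0.25), Igdcc3 (-0.13) and Zfp428 (-0.18) in Early Neurectoderm, and S100a11 (0.21 in Early Neurectoderm, 0.14 in Early Nascent Mesoderm) and S100a10 (0.17 and 0.07) in both. None of these passed the adjustment in its name (adjusted p from 0.0971 for Fn1 upward), and whether the classes differ more in one name than in another was not tested.

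Separate gastruloids, from the pool of days 3.5 and 4, allow the same comparison at day 3.5. The day 3.5 gastruloids hold 10 neural and 6 mesodermal ones, of which 7 and 6 had 20 or more Primitive Streak cells, and all their barcode numbers are 20 or above. There 35 of 9100 genes (0.385%) were called, 15 higher in neural and 20 higher in mesodermal gastruloids. Without a filter on low counts 150 were called, and with a minimum of 10 cells, which keeps all 10 neural gastruloids, 51 (30 of the 35 among them). Of the 129 genes of day 3, 122 could be tested at day 3.5. Of these 102 had the same sign (83.6%), against 54.7% of all 9078 genes tested on both days, and 54 had an unadjusted p under 0.05 (44.3%), against 8.53%. By direction, 31 of 33 higher in neural and 71 of 89 higher in mesodermal gastruloids had the same sign, with medians of 0.15 and -0.18. These gastruloids and lanes took no part in choosing the 129 genes, though the class labels of both days come from the same deposited table.

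The 6 genes called on both days, S100a11, S100a10, Fgf8, Fabp7, Cd36 and Ptn, had the same sign on both. At day 3.5 S100a11 had 280 to 357 CPM in neural (median 303) and 359 to 495 in mesodermal gastruloids (median 397), with a log2 fold change of -0.36 ± 0.07 (SE, adjusted p = 0.0224). Fgf8 had 322 to 474 CPM in neural (median 386) and 435 to 560 in mesodermal gastruloids (median 490), with a log2 fold change of -0.34 (adjusted p = 0.0318). Ptn, the secreted growth factor pleiotrophin of neural progenitors, had a log2 fold change of 0.40 at day 3 (adjusted p = 0.0178) and 1.197 ± 0.16 at day 3.5 (SE, adjusted p = 0.000239), and the difference between the days did not pass (interaction 0.77, adjusted p = 0.147). Its day 3.5 ranges were 89.8 to 168 CPM in neural and 28.6 to 77.1 in mesodermal gastruloids. Hes7, Tbx6, Mesp1, Dll1 and Hoxb1 had negative values again, from -0.31 to -1.59, and did not pass (adjusted p from 0.0675 to 0.546). Hoxb7 and Sp5 were near 0 (-0.00 and -0.01, adjusted p of 1.00 for each), and Fst (0.11, adjusted p = 0.484) and Dnmt3b (-0.15, adjusted p = 0.657) had the opposite sign. Several genes that led at day 3 were also near 0. Slc25a4, Smc6, Cdh2 and Cited2 lay between -0.02 and -0.04, Gnai2 and Pim2 at 0.03 and 0.05, and Sprr2a3 at 0.05, the opposite sign. Others kept larger values, such as Tgfb1 (-0.71), Fn1 (-0.57), Rspo1 (0.56) and Sort1 (0.49), without passing (edgeR adjusted p from 0.0762 to 0.426). The median of the nascent and presomitic mesoderm list was -0.51 at day 3.5, that of the streak list -0.10 and that of the Hox and Cdx list -0.06, with no member of the 3 lists called. The list of neural factors had a median of 0.20 over 14 tested at day 3.5, with 3 called.

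**Figure D5:**
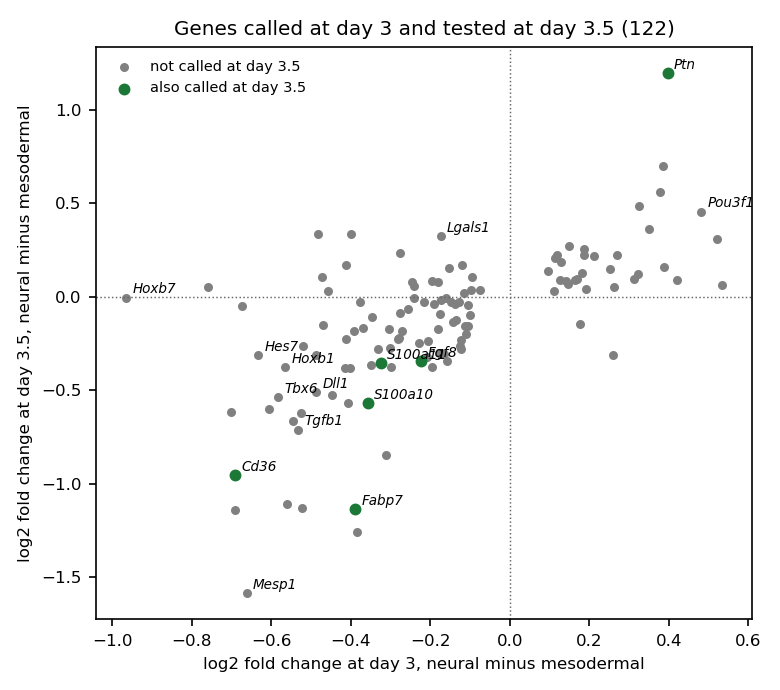
Log2 fold change of the 122 genes called at day 3 and tested at day 3.5, at day 3 (horizontal axis) and at day 3.5 (vertical axis), both neural minus mesodermal, 1 point per gene. Of them 102 lie in the quadrants of like sign, and the 6 also called at day 3.5 are in green.

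Besides Ptn and Fabp7, other genes led at day 3.5. Sox2 had 21.2 to 31.7 CPM in neural and 9.57 to 18.2 in mesodermal gastruloids, with a log2 fold change of 0.88 ± 0.17 (SE, adjusted p = 0.00989), where day 3 had 0.03, and the difference between the days did not pass (interaction 0.86, adjusted p = 0.0991). Gadd45g, a growth-arrest gene of committing progenitors, had 4.19 to 46.6 CPM in neural and 0 to 3.69 in mesodermal gastruloids (adjusted p = 0.000797). Trh, the thyrotropin-releasing hormone gene, had 7.08 to 14.3 CPM in neural and 15.0 to 98.7 in mesodermal gastruloids, with a log2 fold change of -2.47 (adjusted p = 3.43e-05). Trh stood at 2096 CPM in the Mature Endoderm cells of day 3, against 17.04 in Primitive Streak cells. The 6 endoderm markers summed to 22.2 to 35.8 CPM in neural and 31.4 to 155 in mesodermal gastruloids at day 3.5. Trh is itself 1 of these 6, with medians of 8.78 and 67.4 CPM, so the sum is no separate result. Only 2 of the 6 were tested at day 3.5, and Foxa2 was not called (log2 fold change -0.08, edgeR adjusted p = 0.979). The keratin Krt8 (-1.22) and the claudin Cldn6 (-1.48), both epithelial, and Tagln2 (-0.81) were also higher in mesodermal gastruloids. The class difference itself changed with the day for 11 of 10919 genes (0.101%), of which 1, Lgals1, was among the 129: its log2 fold change went from -0.17 at day 3 to 0.32 at day 3.5 (interaction 0.49, adjusted p = 0.0197). Day and pool cannot be told apart in this test.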

How the data were processed

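Single-cell RNA-seq (10x Chromium 3' v3.1) of barcoded gastruloids was used from the 2 lanes of the day 3 pool and the 4 lanes of the pool of days 3.5 and 4. The authors deposited UMI counts per gene and cell for 32285 genes. Per the file headers they come from Cell Ranger 6.0.0, and mm10 and Seurat are named in the submitters' processing notes. The deposited cell table gave each cell's lane, gastruloid barcode, day, cell name, class and embryo-mapped type. The sources used here do not say how these were made. Only cells in that table with a gastruloid call were kept, no doublet caller was run, and MULTI-seq called 4.22% and 18.8% of the final cells of the 2 day 3 lanes doublets. These cells and those with no call were left out.

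The 2 day 3 lanes held 273893181 and 305435487 UMIs in 5545 and 6541 final cells. UMIs were summed per gastruloid and cell name over lanes A and B, which the labels give as samples of one experiment. The gastruloid is the replicate. Nothing says that gastruloids came from separate cultures, so p-values measure only the spread between these gastruloids. Genes were filtered with filterByExpr, scaled by TMM and tested with edgeR 4.0.16 (glmQLFit, glmQLFTest) in R 4.3.3, with Benjamini-Hochberg adjustment over all genes tested and a threshold of 0.05. DESeq2 1.42.0 and limma 3.58.1 (voom) served as alternatives, besides RLE scaling, no filter, a minimum of 50 cells, 1 lane at a time, embryo-mapped cells and a depth covariate. CPM are edgeR's, on TMM-scaled libraries. A listed level by cell name is a plain CPM over the pooled cells. Permutation tests used 100000 resamples. The class comparisons within a day, but not the interaction, were tested on simulated data with genes changed 2-fold. The genes called at day 3 had a median absolute log2 fold change of 0.28 and none reached 2-fold, so the simulations do not cover changes of that size. The members and the 20 gene lists were chosen with earlier results of these data known. Named are the 12 genes of smallest p in each direction, up to 4 called members of each list (2 of the highest level where none was called), 5 per direction at day 3.5, and all genes called in the interaction. One gene that this rule names is not reported here. Further list members are named as values, and Cd36 was chosen after its values were seen. Promoter windows came from RefSeq (GRCm38.p6), 68 and 28 of the 95 and 34 called genes having one, the first window listed per symbol.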

Additional observations from a re-analysis of the deposited data

Results flagged for a closer look

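At day 3.5, Cldn6 in Primitive Streak cells had 1 neural gastruloid far below the others, at 4.01 CPM against 8.80 for the next of 7. In 20 groups of values looked at in this way, chance gives about 1 in 20 such gaps.

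For 11 genes the class difference itself differed between day 3 and day 3.5 (edgeR interaction, values as day 3.5 minus day 3 on the log2 scale). Higher in neural gastruloids at day 3.5 relative to day 3 were Ntn1 (0.91, adjusted p = 0.00447), Ada (0.79, adjusted p = 0.0420, and 0.0752 with DESeq2, which ends the call), Rtl8b (0.51, adjusted p = 0.0222) and Lgals1 (0.49, adjusted p = 0.0197). Lower were Flt1 (-4.78, adjusted p = 0.00447), Ano3 (-2.53, adjusted p = 0.0199), Trh (-2.32, adjusted p = 0.0192), Tagln2 (-0.76, adjusted p = 0.000679), Cdh1 (-0.48, adjusted p = 0.0222), H1fx (-0.38, adjusted p = 0.0199) and Epcam (-0.35, adjusted p = 0.0163). Flt1 was too low to be tested on either day alone and Ano3 at day 3.5, so the size of these 2 values, which rest on few counts, is uncertain. Tagln2, Ntn1, Epcam, Trh, H1fx, Cdh1 and Rtl8b were each called at day 3.5 and not at day 3.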

How the results depend on the processing

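At day 3, against 129 genes called, DESeq2 called 79 (78 of them among the 129), cells mapped to the embryo primitive streak gave 56 (54), without lane A 17 (13, with 13 against 9 gastruloids), without lane B 29 (25, with 13 against 10), and barcode numbers of 20 or above 0. Each of the 129 that could be tested kept its sign under all of these, with fewer cells or gastruloids in the lane and barcode subsets. All of these fits reuse cells that had helped to choose the 129, so the kept signs are a description. Limma-voom gave 108 (104 among the 129), RLE scaling 125 (125), no filter 135 (117), the depth covariate 127 (99), the lane covariate 129 (118) and the fit without gastruloid 12 94 (85 among the 129), and a minimum of 50 cells left the same gastruloids. Without a filter day 3.5 gave 150 calls in place of 35, the interaction 25 in place of 11, Early Neurectoderm 2 and Early Nascent Mesoderm 43. Without lane B, median UMIs per cell differed by -2200.6 (neural minus mesodermal, permutation adjusted p = 0.0258), and the difference in the Epiblast share was no longer past the threshold, at 4.07 percentage points (permutation adjusted p = 0.144). The same held among barcode numbers of 20 or above, at 4.25 (exact permutation test, adjusted p = 0.193). No result reversed. Over the single named genes and their alternatives, 549 values kept their side of the threshold, 148 were no longer past it and 2 moved past it. At day 3, 12 named genes were no longer past it with DESeq2, 7 with limma-voom and 5 with the depth covariate. Not all of these are named above. Day 3 had no gastruloid of an intermediate class, so that alternative was not run, and with classes over 5 gastruloids none was left out in turn. No paired analysis was possible because gastruloids of the 2 classes carry barcodes of their own and share no number. Of the alternatives, those without gastruloid 12, by barcode number, with the lane covariate and with 10 cells were chosen after seeing the data. With 75 to 201 Primitive Streak cells per gastruloid, genes of few CPM are the least certain.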
